A study of Mus musculus with 4 samples.

Results

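Accessible sites away from promoters that carried neither of a pair of motifs, the AP-1 consensus (TGAGTCA or TGACTCA) and the E box with GC at its centre (CAGCTG), are described here. They were taken from 1 list of ATAC-seq peaks of WT and 1 of Tet2 KO mouse primary myoblasts. A peak counted as distal when its centre lay in an intron or between genes, outside exons and outside the stretch from 1000 bp upstream to 100 bp downstream of any annotated start. A distal peak was a member when its mm9 sequence held neither motif on either strand. In the WT list 5504 of 17865 distal peaks, of 25775 peaks in all, were members. In the Tet2 KO list 747 of 2077 distal peaks, of 3836 peaks in all, were members. The lists together gave 6251 members of 29611 peaks.

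The series held 2 WT and 2 Tet2 KO samples of C57BL/6 mice, each library made from 5000 cells and sequenced with paired 150-bp reads. In the Tet2 KO mice exon 3 of Tet2 had been deleted by homologous recombination. The cells were satellite cells of hindlimb skeletal muscle, sorted as PI-CD45-CD11b-CD31-Sca1- CD34+ Integrin alpha7+ and cultured for 3 days as myoblasts. Each of the 2 lists names a single library and could not be tied to a replicate, so genotype and library cannot be told apart, no test between genotypes could be made, and no list gives a spread between replicates. Intervals are 95% intervals (Wilson for shares, binomial order statistics for medians) that cover counting error only, and peaks of 1 library are not replicates. Of 8 myoblast markers, Myod1 and Des had a promoter peak in both lists. Of 8 markers of other cells, Pecam1 had one in the WT list and none had one in the Tet2 KO list.

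ATAC-seq marks DNA that is open to the Tn5 transposase, mainly promoters, enhancers and insulators. AP-1 is the dimer of Fos and Jun proteins and opens enhancers in many cultured cells, whereas E boxes with GC at the centre are the preferred site of MyoD and its relatives. Tet2 oxidises methylated cytosine at CpG sites, which is the first step of active demethylation, and CpG-dense DNA is usually free of methylation. Distal sites without AP-1 or a MyoD-type E box can carry other factors, among them RUNX and TEAD proteins, which act in muscle cells, CTCF, which binds at insulators and loop anchors, and factors of promoter-like DNA such as Sp1 (GC box), NFY (CCAAT box) and ETS proteins.

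Examples of members are printed with 120 bases centred on the summit, from the mm9 (NCBIM37) plus strand, with the motif in capitals. RUNX and TEAD are each shown in a site with and a site without a Tet2 KO peak. They were chosen since, among the 35 motifs fixed by name, they were the commonest of those standing above the flanks more than 3 times. Capitals mark the named motif alone, and other motifs are left in lower case. The RUNX site on chr4 and the TEAD site on chr9 also hold TGACTAA, on the minus and the plus strand. The TEAD site on chr5 also holds RUNX on the minus strand (AACCACA). The sites with RUNX (TGTGGTT) and TEAD (ACATTCC) were as follows.
RUNX, intergenic, chr4:149221670-149221789, with a Tet2 KO peak: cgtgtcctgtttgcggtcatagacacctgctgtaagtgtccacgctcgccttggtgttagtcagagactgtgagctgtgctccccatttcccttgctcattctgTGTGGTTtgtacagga
RUNX, intergenic near Impdh1, chr6:29146047-29146166, without a Tet2 KO peak: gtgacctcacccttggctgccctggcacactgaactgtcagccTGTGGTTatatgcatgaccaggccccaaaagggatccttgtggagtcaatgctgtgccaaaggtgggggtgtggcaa
TEAD, intron of 2310046A06Rik, chr9:77192242-77192361, with a Tet2 KO peak: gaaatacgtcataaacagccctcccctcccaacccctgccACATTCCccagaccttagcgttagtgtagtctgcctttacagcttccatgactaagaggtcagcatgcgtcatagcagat
TEAD, intron of Sorcs2, chr5:36417969-36418088, without a Tet2 KO peak: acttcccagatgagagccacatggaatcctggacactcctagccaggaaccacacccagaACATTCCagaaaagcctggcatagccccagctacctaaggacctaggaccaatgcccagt

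A member with a CTCF core is shown for the motif with the highest ratio to the flanks, and CpG-dense members are shown with a GC box (GGGGCGG, here on the minus strand) and with a pair of CCAAT boxes bound by NFY (CCAATCA).
CTCF core, intergenic near Phlda3, chr1:137649652-137649771, without a Tet2 KO peak: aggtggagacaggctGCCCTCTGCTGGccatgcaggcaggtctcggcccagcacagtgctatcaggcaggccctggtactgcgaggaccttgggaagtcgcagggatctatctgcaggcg
GC box, intergenic near Hdac4, chr1:94077000-94077119, with a Tet2 KO peak: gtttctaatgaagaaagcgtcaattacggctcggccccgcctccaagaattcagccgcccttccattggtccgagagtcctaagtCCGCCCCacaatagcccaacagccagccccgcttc
NFY, intergenic near Zfp964, chr8:72178264-72178383, without a Tet2 KO peak: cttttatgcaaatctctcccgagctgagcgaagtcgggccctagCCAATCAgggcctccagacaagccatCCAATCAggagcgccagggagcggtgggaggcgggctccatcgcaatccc

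Sites that missed the AP-1 consensus by 1 base are shown because these heptamers were frequent in members. The first carries TGACTAA and the second TGAATCA, both on the minus strand, so that the capitals hold their reverse complements. The second also holds TGACTAA on the plus strand, in lower case.
TGACTAA, intergenic near Gpr65, chr12:99521840-99521959, with a Tet2 KO peak: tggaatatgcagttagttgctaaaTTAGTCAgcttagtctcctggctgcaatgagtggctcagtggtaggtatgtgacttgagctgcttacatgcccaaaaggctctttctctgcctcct
TGAATCA, intron of Parvb, chr15:84066222-84066341, with a Tet2 KO peak: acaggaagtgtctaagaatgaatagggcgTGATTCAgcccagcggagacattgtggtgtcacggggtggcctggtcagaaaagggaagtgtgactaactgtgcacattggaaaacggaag

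Each printed site was the member of highest -log10 q that held the motif in the 120 bases and met 3 conditions set after the values were seen: not on chromosome 18, the 50 bp at the summit found once in the genome, and a Tet2 KO fold at most 0.7 of the WT fold where both lists had a peak. The site near Impdh1 had a fold enrichment of 14.4 in WT with 41 fragments at its summit. The site in the intron of 2310046A06Rik had a fold of 15.9 in WT and 6.29 in Tet2 KO, and the site near Hdac4 had 13.4 and 6.42. The site near Gpr65 had 16.9 and 9.73. The lower Tet2 KO values follow from the last of these conditions. Fold enrichment sets the fragments at a summit against the background value of that peak in that library.

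Members made up 30.8% of WT distal peaks (30.1 to 31.5) and 35.97% of Tet2 KO distal peaks (33.9 to 38.1). With both motifs searched in 200 bp centred on each summit, the shares were 33.4% (32.7 to 34.1) and 36.1% (34.1 to 38.2), and these intervals met. Of the other WT distal peaks, 4748 held AP-1 alone, 5024 the E box alone and 2589 both, beside 458, 536 and 336 in Tet2 KO. The WT list thus held 7.37 members for each Tet2 KO member, against 10.4 peaks with AP-1 alone, 9.37 with the E box alone and 7.71 with both. The order of the classes changed with the search and with the calling limit. In fixed 200-bp windows the ratio was 7.95 for members and 6.96 for peaks with both motifs, and among peaks of either list that reached 5 in -log10 q it was 12.95 and 11.0. Among those that reached 10, which leaves 107 Tet2 KO members, it was 20.7 for members against 37.6 to 65.0 in the other classes.

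How often a peak lacks both motifs depends on its length. Members were short, with a median width of 181 bp in WT (179 to 184), against 206 bp for AP-1 alone, 221 bp for the E box alone and 255 bp for both. Among WT distal peaks under 150 bp, 45.9% were members, and among those of 300 bp or more 19.2% were. In windows of fixed length, 200 bp centred on the summit, 33.4% of WT distal peaks held neither motif, while 87.2% of the flanking windows of the same length placed 2000 bp to either side held neither. The absence of both motifs was therefore the usual state of nearby DNA and the less usual one at the summits.

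Members were also the weaker distal peaks. Their median fold enrichment was 7.18 in WT (7.10 to 7.26), against 8.25 with AP-1 alone, 7.87 with the E box alone and 9.10 with both. In Tet2 KO it was 5.33, against 5.75, 5.56 and 5.91. The number of fragments at the summit had a median of 14 in members of both lists, and ranged from 6 to 142 in WT and from 8 to 169 in Tet2 KO. The lists did not share a calling limit, as 20 of 747 Tet2 KO members and 0 of 5504 WT members had a -log10 q under 2. A -log10 q of 2 corresponds to the MACS2 limit in the methods, and the lowest value of a Tet2 KO member was 1.21.

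A Tet2 KO peak overlapped 417 of 5504 WT members by at least 1 bp, which is 7.58% (6.91 to 8.31). The share was 11.0% over all WT distal peaks and 14.1% over all WT peaks. It was 9.65% for AP-1 alone (8.84 to 10.5), 11.0% for the E box alone (10.2 to 11.9) and 20.5% for both (19.0 to 22.1). By this search members had the lowest share of the 4 classes, but that order changed with the search window and with the calling limit. With both motifs searched in 200 bp centred on the summit, 635 of 5964 peaks with neither motif met a Tet2 KO peak, 10.6% (9.89 to 11.5), beside 10.1% for AP-1 alone, 10.9% for the E box alone and 13.9% for both (12.5 to 15.4), so that members no longer stood below either single motif class. When only peaks of either list reaching 5 in -log10 q were kept, the share of members was 5.02% (4.44 to 5.67), against 6.03%, 6.54% and 12.9%. At a limit of 10 it was 3.30% (2.63 to 4.13), against 1.79% (1.36 to 2.36), 1.65% (1.23 to 2.20) and 2.93%.

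The share also differed with peak strength. When WT distal peaks were split into 5 groups of equal number by fold enrichment, members in the weakest group met a Tet2 KO peak at 1.95% (1.37 to 2.75), then 2.16%, 4.12% and 11.7%, and 32.6% in the strongest (29.0 to 36.3). In the strongest group it was 27.7% for AP-1 alone (25.1 to 30.4), 33.5% for the E box alone and 40.3% for both (37.1 to 43.5). Members thus overlapped the interval of each single motif class there and lay below the class with both. In the weakest group AP-1 alone had 0.398% (0.135 to 1.16), below the interval of the members. With the 5 groups weighted as in the members, the shares were 7.58% for members, 6.12% for AP-1 alone, 8.20% for the E box alone and 10.5% for both. Members made up 44.6% of the weakest group and 18.1% of the strongest.

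**Figure D1:**
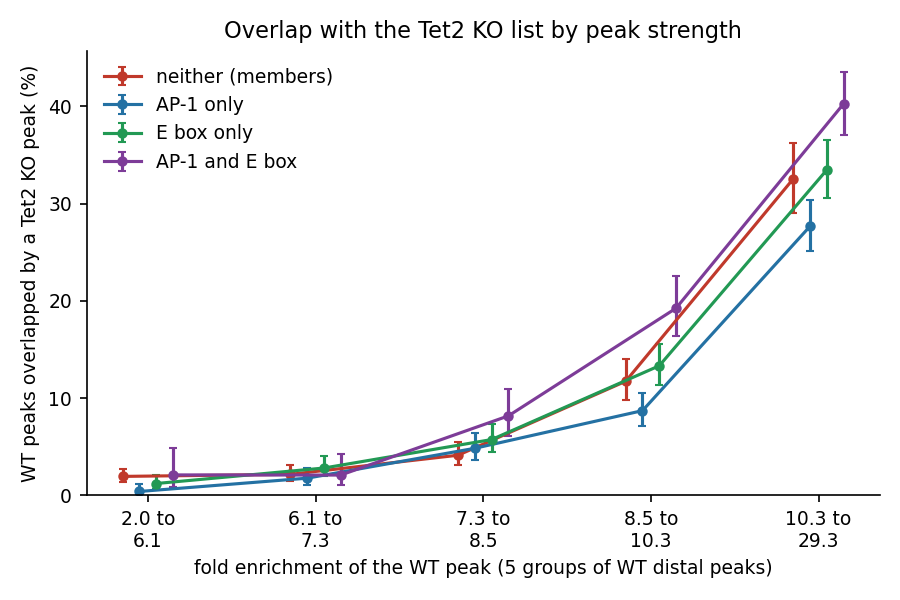
Share of WT distal peaks overlapped by a Tet2 KO peak (vertical axis, percent) in 5 groups of WT distal peaks by fold enrichment (horizontal axis), for members and the other motif classes. Points are shares and bars Wilson 95% intervals; in members the share went from 1.95% in the weakest group to 32.6% in the strongest, where AP-1 alone had 27.7% and the class with both motifs 40.3%.

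In the other direction 671 of 747 Tet2 KO members overlapped a WT peak, 89.8% (87.5 to 91.8). The share was 95.7% over all Tet2 KO distal peaks and 96.8% over all Tet2 KO peaks, and at least 98.5% in each of the other motif classes. The WT peaks that met these 671 were not all members: 412 were, 85 were distal peaks with AP-1 alone, 127 with the E box alone and 43 with both, and 4 were not distal. In the 255 pairs in which the distal WT partner held a motif, the Tet2 KO member had a median width of 145 bp and the WT peak one of 339 bp, and the WT peak was the wider in 253. Of the 417 WT members with a Tet2 KO peak, 410 had a Tet2 KO member as partner.

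The WT members that had a Tet2 KO peak were strong ones, with a median fold of 10.3 and 25 fragments, against 7.004 and 13 fragments in the 5087 without. Their partners in Tet2 KO had a median fold of 5.63. The median log2 ratio of the Tet2 KO to the WT fold was -0.84 for members, and -0.97, -0.94 and -0.98 for AP-1 alone, the E box alone and both. Fold enrichment is scaled within each library, so these ratios describe the lists and not amounts of open DNA.

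A small set of members stood apart from this pattern. In 40 of the 417 pairs the Tet2 KO fold was at or above the WT fold, 9.59% (7.12 to 12.8). The same held for 2 of 458 pairs with AP-1 alone, 4 of 555 with the E box alone and 0 of 530 with both. The 40 members lay on 17 chromosomes, 20 of them were in introns, and 19 were CpG-dense as defined below. The 50 bp at the summit occurred at more than 1 place in the genome file in 10 of these 40 (interval 14.2% to 40.2%), in 6 of the other 377 pairs (1.59%, 0.731 to 3.43) and in 32 of all 5504 WT members (0.581%). Among members whose summit sequence occurs once, 30 of 401 pairs still had a Tet2 KO fold at or above that of WT, 7.48% (5.29 to 10.5).

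**Figure D2:**
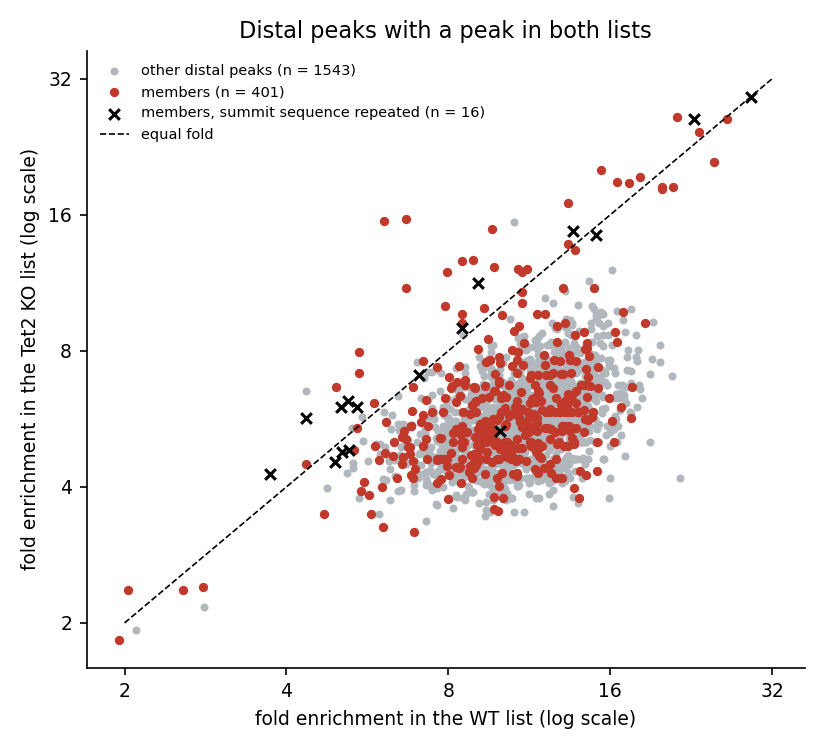
Fold enrichment of WT distal peaks (horizontal axis) against that of the overlapping Tet2 KO peak (vertical axis), both on log scales, for 417 members and 1543 other distal peaks; the dashed line marks equal fold. Most points lie below the line, the 40 pairs at or above it that are members include 10 of the 16 members whose 50 bp at the summit occur more than once (crosses), and the other classes together have 6 there.

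The strongest members belonged to that set or lay near the line. By -log10 q the first 5 WT members with a Tet2 KO peak were an intergenic site 23563 bp upstream of Gm5614 (chr9:35112800-35113165), a site in an intron of Chl1, nearest to a U7 small nuclear RNA gene (chr6:103599062-103599291), an intergenic site far upstream of Pxmp3 (chr3:5860361-5860797), an intron site of Filip1l (chr16:57391514-57391814) and an intergenic site 25036 bp downstream of Ly6c2 (chr15:74916690-74917466). The site near Gm5614 had a fold of 26.4 in WT and 26.1 in Tet2 KO, with 142 and 169 fragments. The U7 site had 29.3 and 29.2, the Pxmp3 site 23.4 and 24.4, the Filip1l site 22.9 and 26.1 and the Ly6c2 site 13.4 and 13.8. In all 5 the fold was about as high in 1 list as in the other. The summit sequences of the U7 and Filip1l sites each occurred at 2 places, and the Pxmp3 and Filip1l sites had 33 and 34 CpG sites.

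The first 5 WT members without a Tet2 KO peak had folds from 14.4 to 17.0 and 32 to 41 fragments at the summit. They lay in introns of Gucy2g, a guanylate cyclase receptor gene (chr19:55306684-55307001), of Dab2ip, which encodes a Ras GTPase-activating protein (chr2:35570222-35570486), and of Celsr3, a cadherin gene (chr9:108734743-108735043), and between genes near Impdh1, an enzyme gene of guanine nucleotide synthesis (chr6:29145798-29146255), and Zkscan3, a zinc finger gene (chr13:21509601-21509797). The summit windows near Impdh1 and Zkscan3 each held RUNX, and an AP-1 site with 1 mismatch was found in those of 4 of the 5, all but the one in Celsr3. All 5 had a summit sequence found once.

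Of the Tet2 KO members, 76 had no WT peak, 10.2% (8.21 to 12.5), out of 124 such peaks in the whole list. Their median fold was 5.05, against 5.35 in the 671 with one, and their median GC content was 48.7% against 51.6%. The 50 bp at the summit occurred at more than 1 place in 24 of the 76 (31.6%, 22.2 to 42.7) and in 15 of the 671 (2.24%). A stretch of chromosome 8 between 19711626 and 20033095 held 21 of the 76, 14 of them with a repeated summit sequence. Without members of repeated summit sequence, 656 of 708 Tet2 KO members overlapped a WT peak, 92.7% (90.5 to 94.4). The strongest of the 76 was an intergenic site near AC122806.1 (chr8:15519860-15520019) with a fold of 13.0 and 30 fragments. It was followed by sites near 4933406J10Rik, in an intron of Eftud1, with a fold of 11.2, P4ha2, which encodes a subunit of collagen prolyl 4-hydroxylase, with 10.3, 2810011L19Rik with 10.8 and Gm17383 with 9.65. The summit sequence of each of these 5 occurred once.

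Over all folds, WT members lay nearer to annotated starts than the other distal peaks. The median distance to the nearest start was 15602 bp in WT (14834 to 16411), against 19855 bp with AP-1 alone (18865 to 20845), 17861 bp with the E box alone (16862 to 18809) and 19110 bp with both (18007 to 20798). This differed with peak strength. In the weakest of the 5 groups of fold the median was 12780 bp in members (11538 to 14293), against 18860 bp with AP-1 alone (16308 to 21228), while in the strongest it was 19869 bp (17179 to 22290), an interval that overlapped those of the other classes. In Tet2 KO it was 15089 bp (12898 to 16965), an interval that overlapped those of the other 3 Tet2 KO classes. Of the WT members 23.7% lay within 5000 bp of a start (22.6 to 24.9), against 17.3%, 20.2% and 17.0% in the other classes, and 19.99% lay beyond 50000 bp. Without the CpG-dense WT members, as defined below, 20.6% lay within 5000 bp. Their median distance was then 17392 bp, inside the interval of all WT peaks with the E box alone. Upstream of the nearest start lay 45.0% of WT members (43.7 to 46.3), and 51.1% were in introns.

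The share of WT members with a Tet2 KO peak was highest close to starts. It was 10.3% within 2000 bp (8.22 to 12.9), 9.13% from 2000 to 5000 bp, between 6.23% and 8.01% from 5000 to 50000 bp, 4.78% from 50000 to 100000 bp (3.37 to 6.74) and 5.72% beyond (3.96 to 8.19). Median folds ran the other way, from 6.83 within 2000 bp to 7.28 beyond 50000 bp. The members of -log10 q of at least 10 that were farthest from a start lay 670314 bp (chr3:147346789-147346947) and 410747 bp (chr3:147606349-147606521) from a SNORA17 gene and 563397 bp from a U6 gene (chr10:16273131-16273294). They had 14, 16 and 16 fragments, and none had a Tet2 KO peak.

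CpG content set members apart from the other distal peaks. The ratio of observed to expected CpG, the number of CpG sites times the length over the product of C and G counts, had a median of 0.223 in WT members (0.218 to 0.229), against 0.178, 0.196 and 0.178 with AP-1 alone, the E box alone and both. WT promoter peaks had a median of 0.757, and 77.1% of them held neither motif. How far the lack of both motifs goes with CpG-rich DNA as such was not tested. GC content did not follow the same order, with medians of 50.4% in members, 48.9% with AP-1 alone, 52.3% with the E box alone and 50.9% with both.

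The difference lay in the upper tail. A ratio of at least 0.6, here called CpG-dense, was found in 574 WT members, 10.4% (9.65 to 11.3), against 2.02%, 2.53% and 1.20% in the other classes. In Tet2 KO it was found in 120 members, 16.1% (13.6 to 18.9), against 1.97%, 2.05% and 0.298%. No CpG at all was found in 754 WT members, 13.7%, a share between those of AP-1 alone (16.1%) and the E box alone (10.4%). CpG-dense WT members lay near starts, with a median distance of 4819 bp and 50.5% within 5000 bp, against 17392 bp and 20.6% in the rest. Of the members within 2000 bp of a start 32.9% were CpG-dense, and of those beyond 100000 bp 2.97% were.

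CpG-dense members had a Tet2 KO peak more often than other members. The share was 16.4% of CpG-dense WT members (13.6 to 19.6) and 6.55% of the rest (5.89 to 7.28), although their median folds were 6.93 and 7.22. It was 3.32% in members without CpG (2.26 to 4.85), 6.06% at ratios up to 0.2, 7.68% from 0.2 to 0.4, 8.42% from 0.4 to 0.6, 14.97% from 0.6 to 0.8 (11.6 to 19.1) and 18.6% from 0.8 (14.0 to 24.3). The share was higher at every step, although neighbouring intervals overlapped in part and peak strength was not held equal. Members without CpG were weaker, with a median fold of 6.67 against 7.27 in those with CpG. From the weakest group of fold to the strongest, the share of members without CpG was 1.79%, 0.515%, 1.41%, 9.30% and 17.3%.

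The higher share of CpG-dense members than of the rest held in each group of fold enrichment. From the weakest group to the strongest the share was 6.22% of CpG-dense members against 1.36% of the rest, 5.88% against 1.72%, 11.7% against 3.41%, 28.6% against 9.78%, and 61.7% (49.0 to 72.9) against 29.6% (26.02 to 33.4). The intervals did not overlap in any of the 5 groups. It held at 5000 bp or more from a start, with 19.0% (14.9 to 24.0) against 6.03% (5.32 to 6.82), while nearer than that the values were 13.8% (10.3 to 18.2) and 8.57% (7.002 to 10.5), whose intervals met. Among members whose summit sequence occurs once it was 15.7% (13.0 to 19.0) against 6.36% (5.71 to 7.08). Methylation of these sites was not analysed here.

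**Figure D3:**
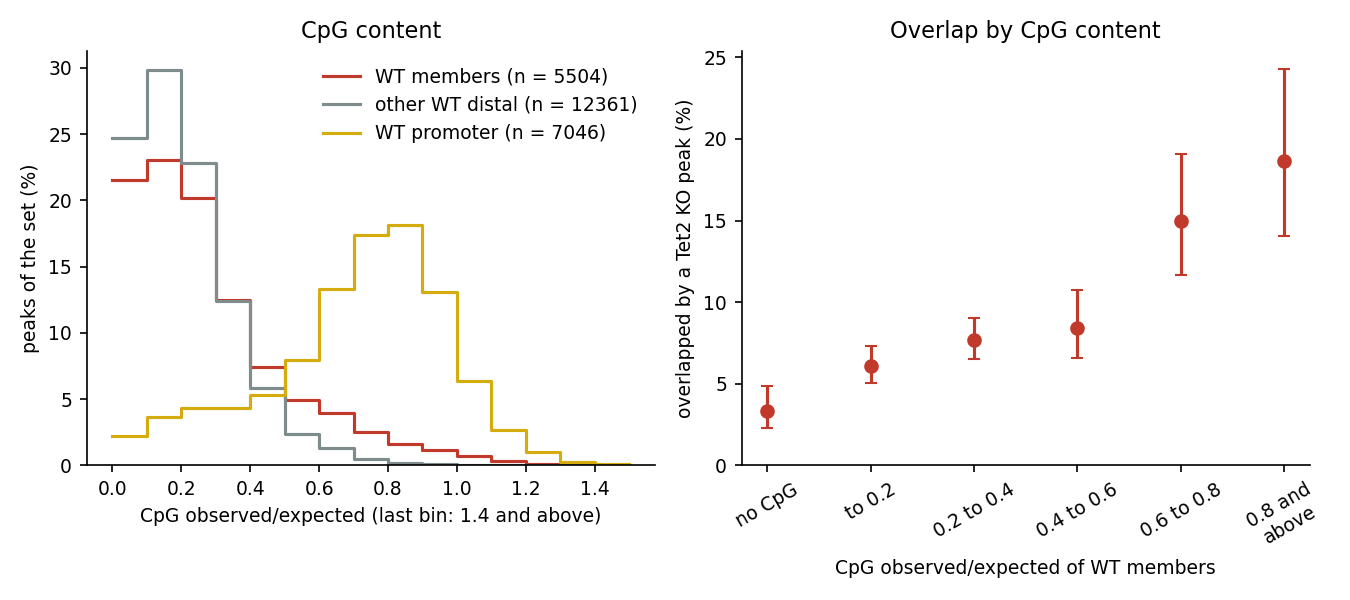
Left, distribution of the observed to expected CpG ratio (horizontal axis) in WT members, other WT distal peaks and WT promoter peaks (vertical axis, percent of the set). Right, share of WT members overlapped by a Tet2 KO peak (points with Wilson 95% intervals) by CpG ratio, from 3.32% without CpG to 18.6% at 0.8 and above.

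Of the 3 most CpG-rich members whose -log10 q reached 10, 2 had the higher fold in the Tet2 KO list. An intergenic site 183520 bp from Samd9l, an interferon-inducible gene (chr6:3151387-3151583), had a ratio of 1.48 with 19 CpG sites, and a fold of 20.9 in WT and 18.5 in Tet2 KO. A site in an intron of Camk1d, nearest to Gm13197 (chr2:5300277-5300419) had 1.33 and folds of 9.63 and 14.9. An intron site of Jarid2, which encodes a Polycomb repressive complex 2 subunit (chr13:44964937-44965040), had 1.20 and folds of 8.49 and 12.6. In pairs with a Tet2 KO peak, 19 of 94 CpG-dense members had a Tet2 KO fold at or above the WT fold, 20.2% (13.3 to 29.4), against 21 of 323 others, 6.50% (4.29 to 9.73).

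Other motifs were searched on both strands in 200 bp centred on the summit, and the share of windows with a match was set beside that in the 11008 flanking windows of the same length 2000 bp to either side. The windows of WT members had a median GC content of 50.5% and the flanks 45.5%, the same values as for the other distal peaks. The part of base composition in the motif shares was not tested. Of 35 motifs fixed by name, 17 had an interval in WT members above that of the flanks and 4 below. Against the other distal peaks 9 had an interval above, namely CTCF core with and without a mismatch, CRE, GC box, TEAD, RUNX, ETS, NFY and MEF2, and 2 below, NRF2 and AP-1 with 1 mismatch. The search for the last also takes the exact consensus, so the rule for members sets its place below the other distal peaks. An NRF2 match can contain the exact consensus as well, so its place is not independent of the rule.

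Of the 9 motifs above the other distal peaks, RUNX and TEAD were the commonest. RUNX was found in 15.01% of WT members (14.1 to 15.98), in 4.88% of flanks and in 10.9% of the other distal peaks (10.3 to 11.4). TEAD was found in 9.38% (8.63 to 10.2), 2.83% and 7.06% (6.62 to 7.53). In Tet2 KO members RUNX was found in 13.0% (10.8 to 15.6) and TEAD in 9.37% (7.48 to 11.7). The other Tet2 KO distal peaks had RUNX in 9.92% (8.43 to 11.6) and TEAD in 8.80% (7.39 to 10.4). For each motif these intervals overlapped, so in the Tet2 KO list neither set members apart from the other distal peaks. At least 1 of the pair was found in 22.9% of WT members and both in 84 windows, 1.53%, against 0.154% of flanks. Around the summits the density of RUNX within 50 bp was 50.4 matches per 1000 members in 50 bp, against 13.0 from 500 to 1000 bp away, and that of TEAD 31.3 against 7.20.

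These motifs were common in CpG-poor members. RUNX was found in 16.3% of members that were not CpG-dense (15.3 to 17.4) and in 3.66% of CpG-dense ones (2.41 to 5.53), which is no more than in the flanks of the latter (5.57%). TEAD was found in 10.02% and 3.83%. Members with RUNX had a Tet2 KO peak in 61 of 826 cases, 7.38% (5.79 to 9.37), and members with TEAD in 41 of 516, 7.95% (5.91 to 10.6). Both intervals contain the 7.58% of all members.

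The motifs of promoter-like DNA showed the opposite distribution. The GC box was found in 5.47% of WT members (4.90 to 6.10), 1.47% of flanks and 2.56% of the other distal peaks, beside 36.7% of WT promoter peaks. It was present in 26.3% of CpG-dense members (22.9 to 30.1) and 3.04% of the rest. NFY was found in 4.11% of members, 2.32% of flanks and 2.23% of the other distal peaks, and in 8.71% of CpG-dense members against 3.57%. ETS (CCGGAAG) was found in 2.33%, 0.763% and 1.51%, and in 7.14% of CpG-dense members against 1.76%. Members with a GC box had a Tet2 KO peak in 38 of 301 cases, 12.6% (9.34 to 16.9), against 7.28% without, and members with NFY in 27 of 226, 11.9% (8.34 to 16.8), against 7.39%. The median WT fold was 6.88 with a GC box and 7.81 with NFY, against 7.18 in all members. The GC box and ETS patterns each contain CpG, so their higher shares in CpG-dense members follow in part from how these were defined. For the same reason the overlap of members with a GC box and that of CpG-dense members are not separate observations.

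**Figure D4:**
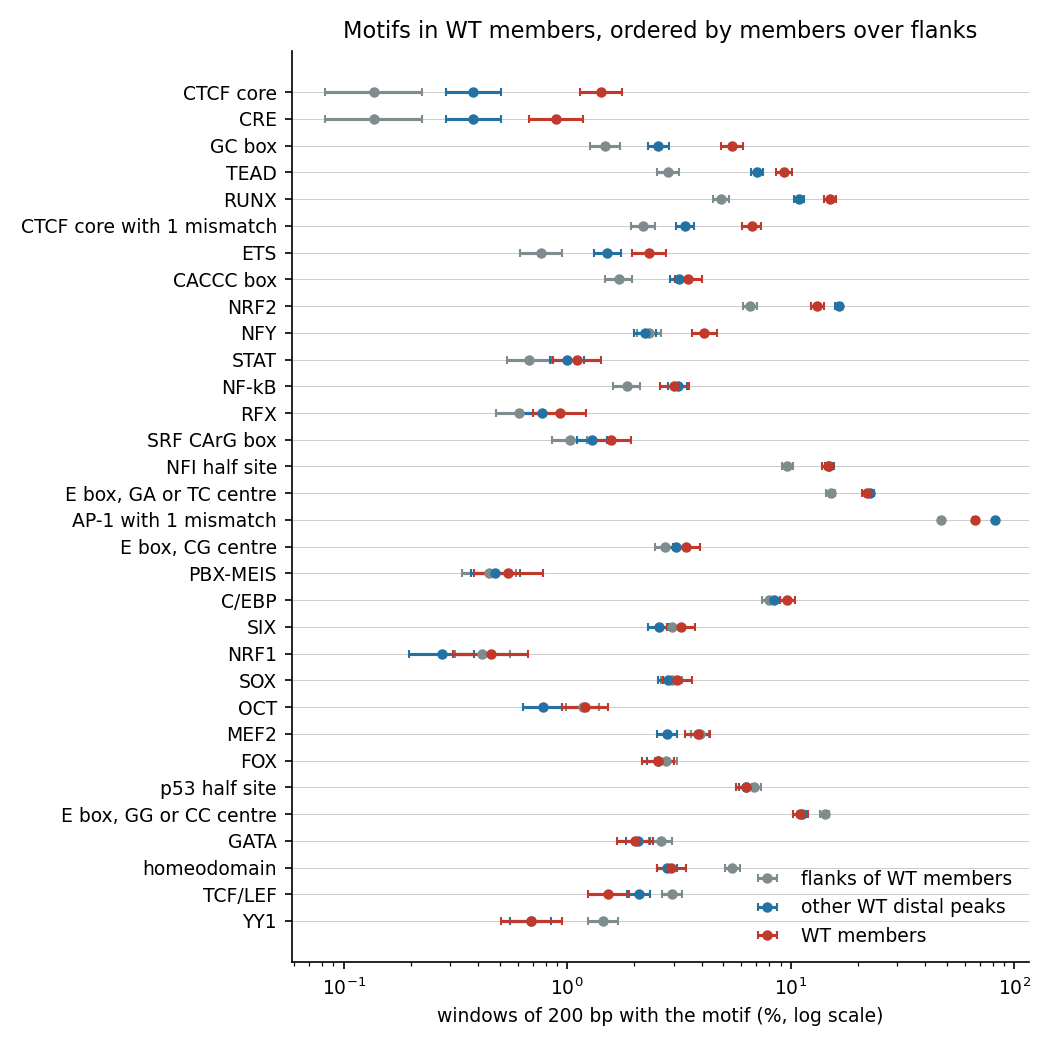
Share of 200-bp windows that hold each motif (horizontal axis, percent, log scale) in WT members, in their flanks and in other WT distal peaks, with Wilson 95% intervals, for motifs found in at least 25 WT members, ordered by the ratio of members to flanks. CTCF core is at the top with 1.42% against 0.136% in flanks, and RUNX has 15.01% against 4.88%.

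The CTCF core had the highest ratio to the flanks and was rare. It was found in 78 WT members, 1.42% (1.14 to 1.77), against 0.136% of flanks and 0.380% of the other distal peaks (0.286 to 0.505). With 1 mismatch allowed it was found in 6.69%, 2.18% and 3.37%. In Tet2 KO members it was found in 5 of 747, 0.669% (0.286 to 1.56), an interval that overlapped that of WT. The Tet2 KO flanks had 0.268% (0.104 to 0.686) and the other Tet2 KO distal peaks 0.451% (0.207 to 0.981). Both intervals also overlapped that of the Tet2 KO members. Members with the core were weak, with a median fold of 6.20, and 2 of 78 had a Tet2 KO peak, 2.56% (0.706 to 8.88), an interval that includes the share of all members. The strongest were an intergenic site near Phlda3, a p53 target gene (chr1:137649629-137649796), with a fold of 14.2, an intron site of Sh3bp5 (chr14:32199306-32199512) with 10.9 and a site in an intron of Zfp286 nearest to 4921522H14Rik (chr11:62570296-62570597) with 9.58, of which the last had a Tet2 KO peak with a fold of 7.64. The cyclic AMP response element CRE (TGACGTCA), which differs from AP-1 by an inserted base, was found in 49 members, 0.890% (0.674 to 1.17), 0.136% of flanks and 0.380% of the other distal peaks.

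**Figure D5:**
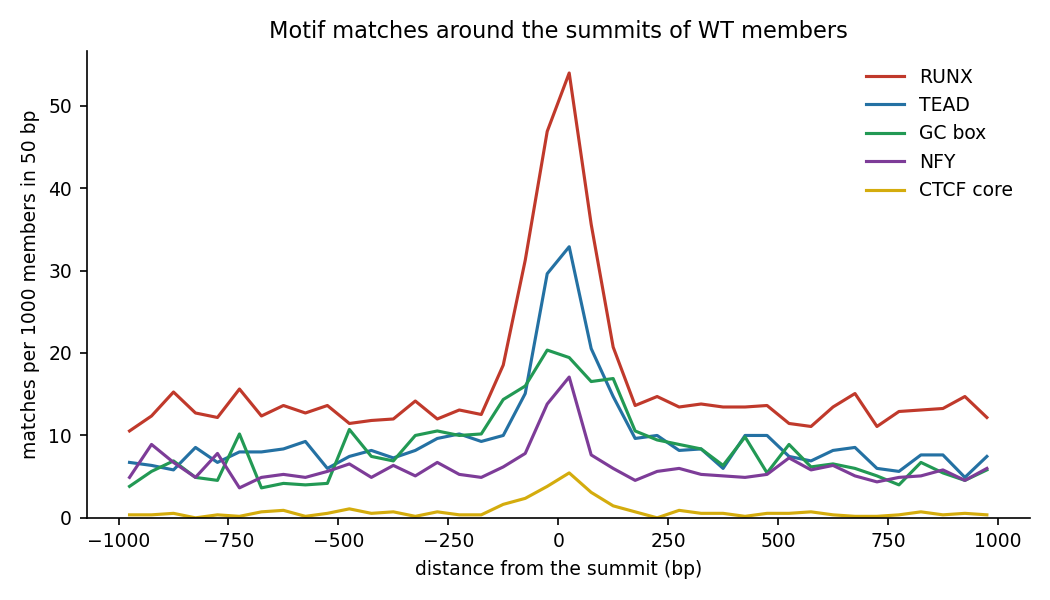
Matches of the RUNX, TEAD, GC box, NFY and CTCF core motifs per 1000 WT members in 50-bp steps (vertical axis) by distance from the summit in bp (horizontal axis). Each is highest within 50 bp of the summit, where RUNX reaches 54.0, and falls to its level at 500 to 1000 bp, which for RUNX is 13.0.

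Sequences close to the excluded motifs were frequent. An AP-1 site with at most 1 mismatch was found in 66.5% of WT member windows (65.3 to 67.8) and 46.9% of flanks. Its commonest forms by ratio were TGACTAA, in 13.5% of members (12.6 to 14.4) against 2.42% of flanks and 7.47% of the other distal peaks, and TGAATCA, in 11.8% (10.9 to 12.6) against 2.52% and 7.19%. TGACGCA and CGAGTCA, each with a CpG, followed with 1.69% and 1.78% against 0.3997% and 0.463%. Of the 19 heptamers with 1 mismatch to AP-1, 13 lay above the flanks, and others such as TGAGACA, in 5.70% of members and 5.66% of flanks, did not. Members with TGACTAA had a Tet2 KO peak in 58 of 741 cases, 7.83% (6.10 to 9.99). NRF2 (TGACNNNGC), whose letters can overlap AP-1, was lower in members (13.1%) than in the other distal peaks (16.4%).

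Of the 10 kinds of E box, 2 lay above the flanks in members. CAGATG was found in 22.0% (20.9 to 23.1) against 15.1% of flanks, and CAACTG in 14.9% (14.0 to 15.9) against 9.88%. The other distal peaks had CAGATG in 22.7% (22.0 to 23.5) and CAACTG in 14.5% (13.9 to 15.2), intervals that overlapped those of members. CAGGTG, which MyoD also binds, was found in 11.0% (10.2 to 11.9), below the 14.2% of flanks (13.6 to 14.9), and in 11.3% of the other distal peaks. The exact AP-1 consensus and CAGCTG were found in 3.87% and 5.80% of member windows, since a 200-bp window can reach past a short peak, and 513 members (9.32%) had at least 1 of them there. Of the members with CAGCTG just outside the peak, 7 of 319 had a Tet2 KO peak, 2.19% (1.07 to 4.46). Such members have short peaks by construction, and their median fold was 6.11, against 7.18 in all members.

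MEF2, whose factors act with MyoD in muscle, was found in 3.83% of members (3.36 to 4.37), above the other distal peaks (2.80%, 2.52 to 3.10) and not above the flanks (3.94%). SRF CArG boxes were found in 1.56% of members (1.27 to 1.93) against 1.03% of flanks (0.855 to 1.23). Homeodomain motifs (TAATTA), TCF/LEF (CTTTGAT) and YY1 (AAGATGGC) lay below the flanks, with 2.93% against 5.49%, 1.53% against 2.94% and 0.690% against 1.44%. In the other distal peaks they were found in 2.79%, 2.09% and 0.688%.

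Members had neighbours more often than peaks with AP-1. Another WT peak lay within 5000 bp of 30.5% of WT members (29.3 to 31.8), against 23.0% of peaks with AP-1 alone, 29.0% with the E box alone (27.7 to 30.2) and 23.1% with both. A promoter peak lay within that reach of 5.34% of members (4.78 to 5.97), against 2.59%, 3.70% and 3.05%. A peak with AP-1 or the E box lay within reach of 18.0% of members. On the 19 autosomes members numbered 1.80 to 3.00 per Mb.

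Members near genes of muscle and of other cells were counted by the gene of the nearest start. Of 23 myogenic and satellite cell factors, 9 were the nearest start of a total of 14 WT members, of 68 distal peaks near these genes (20.6%, 12.7 to 31.6), and 0 of the 14 had a Tet2 KO peak, an interval up to 21.5% that contains the 7.58% of all WT members. In the Tet2 KO list 3 members lay near 2 of these genes. Mef2d, Pax3 and Pax7, which marks satellite cells, had 2 each and Eya2 had 1. Of 25 genes of adhesion, fusion and the sarcomere, 13 had 24 members of 65 distal peaks (36.9%, 26.2 to 49.1). Des (desmin), Jam3, Myh9 and Ncam1 had 3 each and Dysf (dysferlin, of membrane repair) and Flnc (filamin C) 2 each, and 1 of the 24, at Jam3, had a Tet2 KO peak, 4.17% (0.739 to 20.2), an interval that also contains that share.

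Of 23 genes of extracellular matrix and growth factor signalling, 11 had 17 members of 60 distal peaks (28.3%, 18.5 to 40.8). Col4a2 and Igf1r had 3 each, Col4a1 and Met, the receptor of hepatocyte growth factor, 2 each, and Col1a1 and Col1a2 had 1 each. The only 1 of the 17 with a Tet2 KO peak (5.88%, 1.05 to 26.98), named here after its value was seen, was at Tgfb2, a transforming growth factor beta ligand, with a fold of 11.0. Of 15 genes of other cell types, Cdh5 had 2 members and Ptprc 1, of 18 distal peaks, and 0 of the 3 had a Tet2 KO peak, which allows up to 56.1%. The intervals of the first 3 lists contain the 30.8% of all WT distal peaks, and 14 to 24 peaks a list do not allow a finer comparison. In all 3861 genes were the nearest start of a WT member, 2924 of them of 1 member and 35 of 5 or more.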

How the data were processed

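ATAC-seq libraries were made from 2 WT and 2 Tet2 KO myoblast samples, and 1 peak list per genotype was used, assigned to its genotype by its deposited name. Per the methods, the authors trimmed the reads, aligned them to mm9 with Bowtie2, filtered on mapping quality, removed duplicates and ran MACS2 on each sample. The authors deposited the fold enrichment at the summit as a ratio over the background of the peak, and deposited the p and q values as -log10 p and -log10 q. The other deposited columns used were the peak's position and its summit offset. Total read numbers were not given in the sources used here. The lists skip peak numbers, and how their peaks were selected is not given in the sources used here.

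Members and gene lists were chosen with earlier results of these data known. Peaks were set against GENCODE M1 and the NCBIM37 sequence (mm9) at their centres, in Python 3.11.15 with numpy 2.4.6, pandas 2.3.3 and scipy 1.17.1. Fragments at the summit were worked out from the fold and the -log10 p through MACS2's Poisson test, to within 0.001 of the -log10 p for all 17865 WT and 2077 Tet2 KO distal peaks (41 WT peaks had more than 1 solution, and the closest was taken). The commonest background value was 0.65 fragments in the WT list and 1.38 in the Tet2 KO list. Peaks overlapped when they shared 1 bp. Windows, flanks and repeated 50-bp sequences were searched by exact matching on both strands, and the code was tested on simulated data. The authors trimmed the reads to less than 50 bp before alignment. A 50-bp sequence found once can thus still be repeated at the aligned length or with mismatches. Peaks were named by the gene of the nearest start, by rule: the 5 WT members of highest -log10 q with and without a Tet2 KO peak, the 5 Tet2 KO members of highest -log10 q without a WT peak, 3 each of highest CpG ratio and greatest distance at a -log10 q of at least 10, 3 of highest -log10 q with a CTCF core, and up to 6 genes with most members in each gene list. The alternatives tried were limits on -log10 q and fold, the promoter window, the annotation, the summit for the centre, the sequence searched, the motif definitions, peak width and the overlap rule. The values of some single genes of the myogenic list are not reported here.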

Additional observations from a re-analysis of the deposited data

How the results depend on the processing

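No paired analysis was possible because the lists, 1 per genotype, carry no replicate number, and for the same reason no replicate could be left out. With a limit of 5 on -log10 q, 377 Tet2 KO members, 29.5% of WT distal peaks and a Tet2 KO overlap of 5.02% of WT members were found. With a limit of 10 there were 2213 WT and 107 Tet2 KO members, 23.1% of WT distal peaks, an overlap of 3.30% and a CTCF core in 0.723%. With a fold of at least 5 there were 456 Tet2 KO members, 30.1% and an overlap of 5.58%. These limits remove more of the Tet2 KO list. With 3000 bp on either side of a start as promoter, 29.49% of WT distal peaks were members, with a median distance of 21340 bp and a CpG ratio of 0.210. With protein-coding transcripts alone the distance was 23563 bp. With AP-1 and the E box searched in 200 bp about the summit, 33.4% were members, with an overlap of 10.6%, and members no longer stood below the classes with a single motif. With 1 mismatch to AP-1 counted as AP-1 there were 2046 WT and 312 Tet2 KO members, 11.5% and an overlap of 5.87%. With any E box counted there were 2045 and 304 members, 11.4%, an overlap of 5.43%, a distance of 13791 bp and a CpG ratio of 0.256. Among peaks from 200 bp to under 300 bp, 25.5% were members. The overlap was 5.21% when at least 50% of each peak had to be shared and 6.80% when the WT summit had to lie in the Tet2 KO peak. With 1 mismatch allowed the CTCF core was in 6.69%. The cause was not tested for the moves beside the limits above. The alternatives on repeated sequence, the CpG limit, RUNX and TEAD were chosen after seeing the data, and in them the overlap of CpG-dense members ranged from 11.7% (-log10 q of at least 10) to 18.9% (CpG ratio of at least 0.75). The median number of fragments at the summit of a member was 14.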
